A study of Rattus norvegicus with 10 samples.

Results

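Integrins are the receptors through which cells hold on to matrix and to each other, and cadherins and protocadherins are the calcium-dependent receptors that join a cell to its neighbours. Their genes were taken as all probe sets annotated to a single symbol that starts with *Itga*, *Itgb*, *Cdh* or *Pcdh* followed by the name of a chain, which left out proteins that only bind a chain. This gave 80 probe sets for 55 genes, of 31042 probe sets and 14217 genes measured: 22 integrin chains, 16 cadherins and 17 protocadherins. Where a gene has several probe sets, the brightest by its average across the 10 arrays stands for it.

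The rats were ACI females (ACI/SegHsd) and BN (Brown Norway) females, 5 of each, all given 17β-estradiol (E2) from a subcutaneous implant placed at 9 weeks of age and kept for 12 weeks. RNA from the mammary gland of each rat was hybridized to 1 Affymetrix Rat Genome 230 2.0 array. ACI is the strain that develops mammary cancer under E2 and BN is the resistant strain, so the comparison asks how the glands of the 2 strains differ under the same hormone. No untreated rat is among these arrays, so each difference is between strains and not a response to E2.

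Each integrin is a pair of an alpha and a beta chain, and which chain is made decides whether a cell binds collagen, laminin, matrix proteins that carry the RGD peptide, or other cells. In the mammary gland, laminin receptors anchor the epithelium to its basement membrane and E-cadherin seals the luminal cells to each other, while the beta chain *Itgb2* is made by leukocytes and pairs there with several alpha chains. Classical cadherins differ by tissue, with E-cadherin in epithelium, N-cadherin in nerve and muscle and cadherin 11 in mesenchyme, and most protocadherins are known from the nervous system.

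Values are log2 expression. The lowest value on every array is 2.23, and 30.6% to 33.3% of an array's probe sets share it; array medians lay between 3.35 and 3.53. A gene is called near background in a strain when all of its rats are under 4. A fold worked out with every value under 4 set to 4 is then a lower bound, provided that all rats of the other strain reach 4. Differences are ACI minus BN with the standard error (SE), and a gene is called different at an adjusted p under 0.05 from limma with Benjamini-Hochberg adjustment over all probe sets. Each strain's samples were deposited in a run of their own, so deposit and strain cannot be told apart.

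Of the 55 genes, 12 were called different between the strains, 3 higher in ACI and 9 higher in BN. Over all 14217 genes the same call took 17.4%, with 8.29% higher in ACI and 9.12% higher in BN, against 21.8% of the adhesion genes. The 3 genes higher in ACI were *Itgal*, *Itga1* and *Itga6*, all alpha chains of integrins. The 9 genes higher in BN were *Itgb2*, *Itgam*, *Itgax*, *Itgb7*, *Itgb3*, *Itga8*, *Cdh11*, *Cdh16* and *Pcdhb9*. The rats of the 2 strains did not overlap in 11 genes, 3 with ACI above BN and 8 with BN above ACI, and over all genes 16.6% did not overlap. The median difference over the 55 genes was -0.05, beside 0.00 over all genes.

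The families differed in how much of them could be read. Of the 22 integrin chains, 9 were called and 2 were under 4 in every rat, whereas 11 of the 16 cadherins and 11 of the 17 protocadherins were under 4 in every rat. Among the 24 genes with a mean of at least 4, 9 were called (37.5%), and among all genes with such a mean 24.7% were called. A filter on the mean keeps a gene that is high in only 1 strain more readily than a gene that is low in both. Of the 15 alpha chains, 3 were called higher in ACI and 3 higher in BN, with a median difference of -0.26. The 3 higher in BN include *Itga8*, whose probe sets disagree in direction, and without it there are 2. Of the 7 beta chains, 3 were higher in BN, 0 were higher in ACI by limma's adjusted or unadjusted p, and the median was -1.37.

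**Figure D1:**
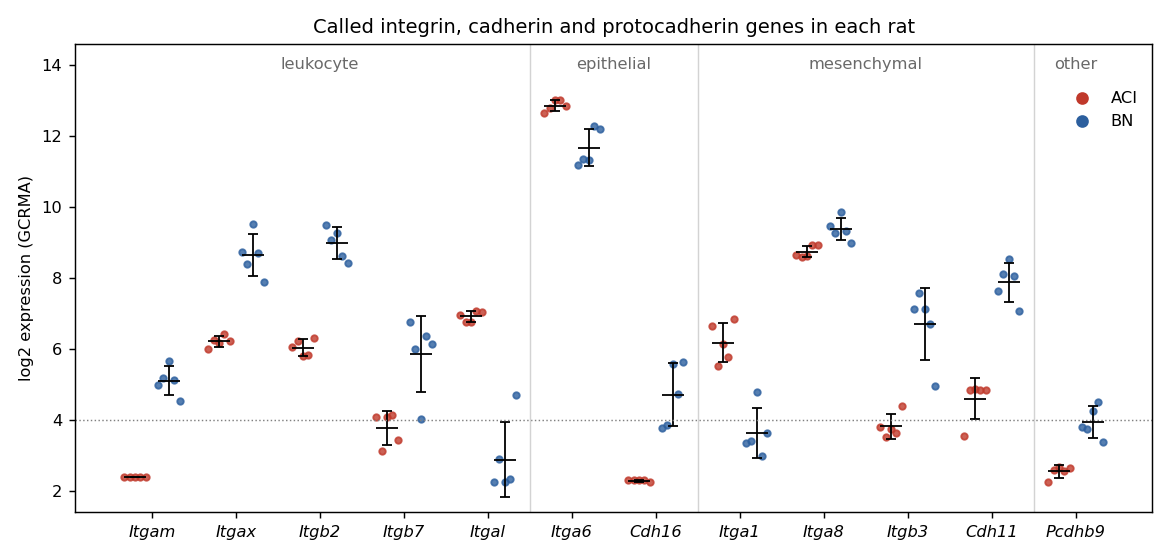
Log2 expression (GCRMA) of the 12 called genes in each of 10 rats, grouped by class, with 5 ACI rats in red and 5 BN rats in blue. The bars are the mean and SD of each strain and the dotted line marks log2 4; the strains overlap only for *Itgb7*, where BN 3 lies at 4.01 within the ACI range.

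The leukocyte chains held the largest share of called genes. Of 7 chains measured, 4 were higher in BN, *Itgal* was higher in ACI, *Itgad* and *Itgae* were not called, and the median difference was -2.09. *Itgb2* encodes CD18, the beta chain shared by the leukocyte integrins, and it measured 6.04, 6.22, 5.79, 5.82 and 6.31 in ACI rats 1 to 5 and 9.50, 9.06, 9.28, 8.62 and 8.41 in BN rats 1 to 5. Every BN rat lay above every ACI rat by more than 2 log2 units. The difference was -2.94 ± 0.22 (SE, limma adjusted p = 1.3e-04), or 7.66-fold. In whole tissue, fewer cells of a type and less RNA per cell cannot be told apart.

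*Itgam* encodes CD11b, which joins CD18 on macrophages, monocytes and neutrophils as complement receptor 3. It was listed at 2.39 in all 5 ACI rats and at 4.99, 5.18, 5.67, 5.13 and 4.52 in the BN rats, so it was near background in ACI and at least 2.14-fold higher in BN (difference -2.71 ± 0.18, limma adjusted p = 7.4e-05). *Itgax* encodes CD11c, the chain known from dendritic cells and macrophages, and gave 6.00, 6.26, 6.17, 6.42 and 6.21 in ACI against 8.72, 8.39, 9.51, 8.69 and 7.89 in BN. It was readable in both strains and 5.38-fold higher in BN (-2.43 ± 0.27, limma adjusted p = 8.0e-04). For both alpha chains BN 3 was the highest rat and BN 5 the lowest BN rat. In the annotation *Itgam*, *Itgax* and *Itgad* are neighbours with 0 protein-coding genes between them, while *Itgad*, at the end of that row, lay between 2.26 and 2.60 in all 10 rats.

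*Itgal* encodes CD11a, the alpha chain of LFA-1, which lymphocytes use to bind ICAM proteins on other cells. Its probe set ran against the other leukocyte chains, with 6.96, 6.76, 6.76, 7.07 and 7.04 in ACI and 2.23, 2.88, 2.23, 2.32 and 4.71 in BN. All ACI rats were above all BN rats, and 4 of the 5 BN rats were under 4. The difference was 4.04 ± 0.47 (limma adjusted p = 0.0010), which is 16.5-fold as measured and 6.85-fold with values under 4 set to 4. *Itgal* has only this probe set, so the array holds no other reading of it. The probe sequences were not examined here, and whether this set reads *Itgal* equally well in both strains was not tested. The gene lies 33 protein-coding genes from *Itgam*.

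*Itgb7* encodes the beta chain of gut-homing and intraepithelial lymphocytes. Its values were 4.08, 3.11, 4.08, 4.13 and 3.43 in ACI and 6.77, 6.00, 4.01, 6.37 and 6.15 in BN. BN 3 fell among the ACI rats and the other BN rats lay above them all. The difference of -2.09 ± 0.51 passed with all rats (limma adjusted p = 0.031) and without BN 3 (-2.56), but not without any other rat, where adjusted p lay between 0.0558 and 0.0771, nor without BN 4 and BN 5 (0.105). *Itgae* encodes CD103, its partner on intraepithelial lymphocytes, and stayed between 6.47 and 6.76 in ACI and between 6.67 and 7.13 in BN (-0.19, 95% interval -0.41 to 0.03, limma adjusted p = 0.274). Another alpha chain, *Itga4*, had no probe set with a single symbol and was not analysed here.

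All called leukocyte markers were higher in BN, as were *Itgb2*, *Itgam*, *Itgax* and *Itgb7* and unlike *Itgal*. Of 8 pan-leukocyte markers 7 were called, all higher in BN, and their mean level ran from 9.12 to 9.44 in ACI and from 10.80 to 11.93 in BN. Of 9 macrophage markers 4 were higher in BN, with list means of 8.98 to 9.57 against 9.65 to 10.25. Of 8 T cell markers 5 were higher in BN, with list means of 4.75 to 5.26 against 5.40 to 8.15, and of 5 B and plasma cell markers all were higher in BN, with 3.03 to 3.23 against 5.19 to 9.82 and 4 of them near background in ACI. Uncalled markers in the macrophage and T cell lists were higher in ACI by up to 1.20 and 0.86. BN 3 was the lowest BN rat in both lymphoid lists, at 5.40 for T cells and 5.19 for B and plasma cells, and the highest in the macrophage list. Of 5 neutrophil markers 2 were higher in BN, *Camp* and *Cxcr2* were at the lowest value in every rat, and the list mean ran from 2.71 to 3.39 in ACI and from 3.96 to 6.28 in BN. The part of these cell types in the differences of the chains was not tested.

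**Figure D2:**
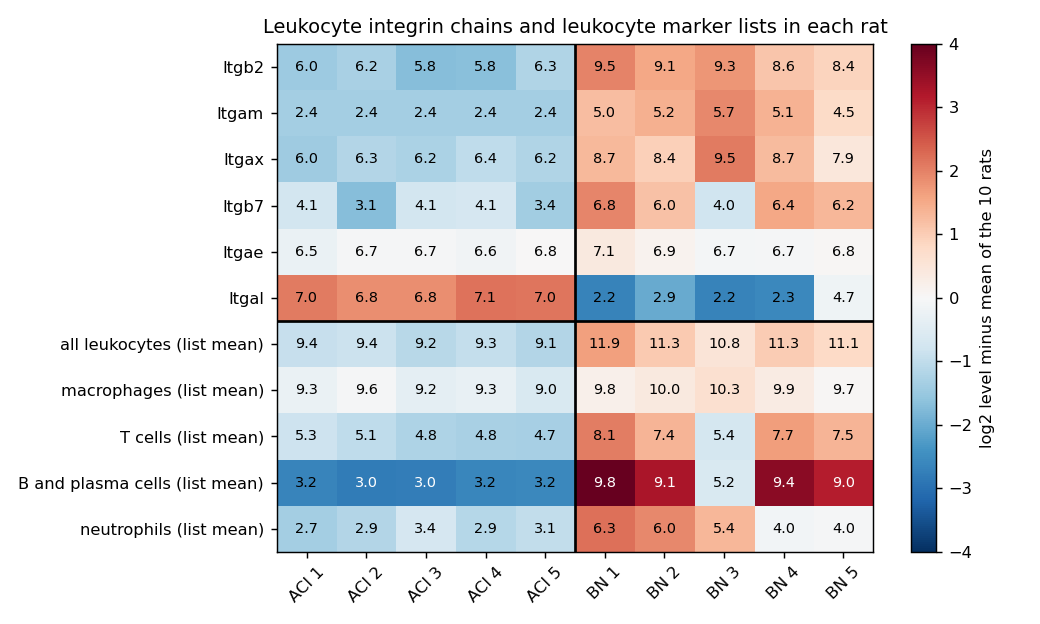
Log2 level of 6 leukocyte chains (upper rows; *Itgad*, under 4 in all rats, is left out) and the mean log2 level of 5 leukocyte marker lists (lower rows) in each rat. The number in a cell is the level and its colour the level minus the row's mean over 10 rats; *Itgal* is red in ACI where *Itgb2*, *Itgam*, *Itgax* and the marker lists are blue.

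Promoter sequence is shown for *Itgam* and *Itga1*, a called chain from each direction whose window lies just before the annotated start. The windows are the 250 bases before the start in the RefSeq annotation of GRCr8, an assembly made from a BN rat, given 5′ to 3′ on the strand of the gene. Capitals mark GAGGAA, the core of the PU box that the myeloid and B cell factor PU.1 binds, or its other strand TTCCTC.
Itgam, chr1:192089342-192089591, plus strand: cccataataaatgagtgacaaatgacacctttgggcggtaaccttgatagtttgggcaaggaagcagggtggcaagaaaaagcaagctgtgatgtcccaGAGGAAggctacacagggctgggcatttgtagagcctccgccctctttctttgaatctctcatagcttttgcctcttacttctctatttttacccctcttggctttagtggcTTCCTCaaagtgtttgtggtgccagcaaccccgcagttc
Itga1, chr2:48545284-48545533, minus strand: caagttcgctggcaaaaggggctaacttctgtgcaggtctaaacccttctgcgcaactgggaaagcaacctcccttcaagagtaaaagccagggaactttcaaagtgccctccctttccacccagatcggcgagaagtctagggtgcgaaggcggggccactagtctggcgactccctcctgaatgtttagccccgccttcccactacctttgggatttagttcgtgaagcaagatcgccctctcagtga
The *Itgam* window holds the letters 2 times, 1 on each strand, and the *Itga1* window holds them 0 times. Of the 6 called genes with a window, *Itgam* alone holds them: *Itgax*, *Itgb7*, *Itga8* and *Pcdhb9* do not, and the windows of *Itgax* and *Itgb7* lie inside the annotated gene. Among 33469 promoter windows of this length 23.3% hold the letters on either strand, and among the 36 adhesion genes with a window 13 do (36.1%). A match of letters is a description of the sequence and does not show binding.

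Of the collagen receptors, *Itga1* encodes the alpha chain that binds type IV and other collagens with *Itgb1* in smooth muscle, endothelium and fibroblasts. It gave 6.64, 5.52, 6.14, 5.76 and 6.83 in ACI and 3.34, 3.39, 4.79, 2.97 and 3.64 in BN. No BN rat reached the lowest ACI rat, and 4 of 5 BN rats were under 4. The gene was 5.86-fold higher in ACI as measured and 4.06-fold with values under 4 set to 4 (2.55 ± 0.39, limma adjusted p = 0.0037). *Itga11*, a fibroblast receptor for fibrillar collagen, was listed at 5.26 in every ACI rat and in BN 5, and at 5.33 to 6.01 in the other BN rats (-0.26, 95% interval -0.57 to 0.06, limma adjusted p = 0.308). *Itga2* and *Itga10*, the other collagen-binding chains, had no probe set with a single symbol and were not analysed here.

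Markers of cells that make *Itga1* stood as follows. Of 7 fibroblast markers 1 was called, higher in BN, with list means of 10.23 to 10.59 in ACI and 10.45 to 12.16 in BN. Of 8 endothelial markers 3 were called, all higher in BN, with 6.07 to 6.77 against 6.98 to 7.87. Of 7 basal markers, among them smooth muscle actin, none was called by limma, with list means of 8.62 to 9.05 against 8.15 to 8.88 and a median difference of 0.47. *Krt5*, *Oxtr* and *Acta2* of this list had an unadjusted p under 0.05 by limma, with differences of 0.63, 1.02 and 1.07. *Oxtr* was under 4 in all BN rats and differed by 0.40 with values under 4 set to 4. *Myh11* and *Mylk* differed by 0.47 and 0.14, and *Krt14* and *Krt17* went the other way, at -0.22 and -0.26. The part of these cell types in its difference was not tested.

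Of the laminin receptors, *Itga6* was higher in ACI. It encodes the alpha chain that pairs with *Itgb4* in hemidesmosomes, and with *Itgb1*, and holds mammary epithelium to laminin. Its representative probe set measured 12.65, 12.79, 13.01, 13.03 and 12.84 in ACI and 11.19, 11.36, 11.34, 12.28 and 12.20 in BN. The lowest ACI rat lay above the highest BN rat, and the BN rats fell into a lower 3 and a higher 2, BN 4 and BN 5. The difference was 1.19 ± 0.24 (limma adjusted p = 0.0133), or 2.28-fold.

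Other probe sets of *Itga6* gave a larger difference. A second set measured 8.53, 8.59, 8.58, 9.07 and 9.11 in ACI and 3.81, 4.23, 5.19, 5.80 and 5.03 in BN (3.96 ± 0.37, limma adjusted p = 3.6e-04). Another measured 8.13, 7.95, 7.65, 8.36 and 7.01 in ACI and 3.08, 3.37, 4.70, 4.70 and 5.33 in BN (3.58 ± 0.48, limma adjusted p = 0.0019). All 3 sets were higher in ACI without overlap, while the fourth stayed between 2.23 and 2.30 in all rats.

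The partners of *Itga6* were not called. *Itgb4*, the hemidesmosome beta chain, gave 9.03, 8.45, 8.38, 8.41 and 8.23 in ACI and 7.74, 7.91, 8.65, 8.21 and 8.37 in BN, and the strains overlapped (0.32, 95% interval -0.15 to 0.80, limma adjusted p = 0.417). *Itga3*, the other laminin receptor chain of epithelium, lay between 7.00 and 7.48 in ACI and between 7.04 and 7.89 in BN (-0.08, 95% interval -0.49 to 0.34, limma adjusted p = 0.947). *Itga7*, the laminin receptor chain of muscle, lay between 5.38 and 6.66 in ACI and between 6.54 and 7.72 in BN, with an overlap of ACI 1 with 3 of the BN rats (-1.07, 95% interval -1.87 to -0.27, limma adjusted p = 0.0882). A second set of *Itga7* gave -0.18 (95% interval -1.67 to 1.31) and was not called. Skeletal muscle markers, 9 in all, gave no call by limma (3 had an unadjusted p under 0.05), with a median difference of 3.16. Their list means ran from 7.07 to 11.44 in ACI and from 4.01 to 10.44 in BN.

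**Figure D3:**
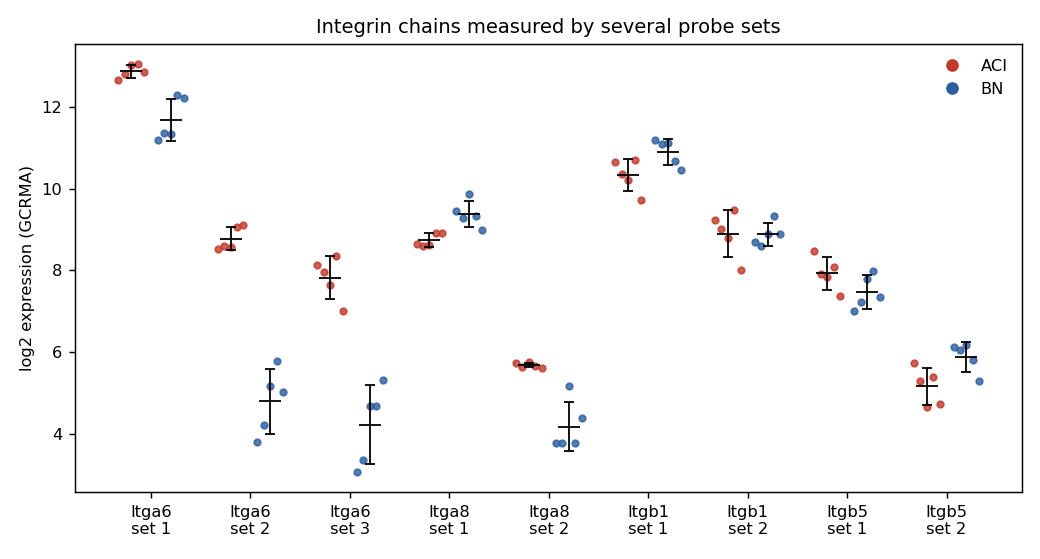
Log2 expression of *Itga6*, *Itga8*, *Itgb1* and *Itgb5*, each with several probe sets above background, in ACI rats (red) and BN rats (blue). Set 1 is the representative and the bars are the mean and SD. *Itga7* and *Itgav*, which also have several such sets, are not shown. The 3 sets of *Itga6* are all higher in ACI, the 2 sets of *Itga8* differ in opposite directions, and the sets of *Itgb1* and *Itgb5* overlap between the strains.

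Of the chains that bind RGD peptides, *Itgb3* was higher in BN, and *Itga8* was called with probe sets that disagree. *Itgb3* encodes the beta chain of the vitronectin receptor, found on osteoclasts, macrophages, growing endothelium and platelets. It measured 3.79, 3.51, 3.74, 3.62 and 4.39 in ACI and 7.12, 7.58, 7.13, 6.69 and 4.96 in BN. BN 5 lay far below the other BN rats but above every ACI rat, and 4 of 5 ACI rats were under 4. The gene was 7.39-fold higher in BN as measured and 6.14-fold with values under 4 set to 4 (-2.89 ± 0.47, limma adjusted p = 0.0051). Its platelet partner *Itga2b* was at 2.23 in all 10 rats, and of 4 platelet markers *Ppbp*, *Gp9* and *Gp5* were near background in both strains. The remaining platelet marker, *Pf4*, was readable and higher in BN (8.73 against 10.32, difference -1.59, limma adjusted p = 1.1e-04), and the part of platelets in the difference of *Itgb3* was not tested.

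*Itga8*, whose product binds nephronectin and fibronectin and marks smooth muscle and other contractile mesenchymal cells, had probe sets that disagreed. The representative set gave 8.65, 8.60, 8.63, 8.92 and 8.92 in ACI and 9.46, 9.27, 9.87, 9.32 and 8.99 in BN, with BN 5 just above the highest ACI rats (-0.64 ± 0.16, limma adjusted p = 0.0321). The second set gave 5.75, 5.65, 5.76, 5.68 and 5.63 in ACI and 3.79, 3.79, 5.17, 3.80 and 4.40 in BN, with ACI above BN (1.50 ± 0.27, limma adjusted p = 0.0076). With the mean of both sets the difference was 0.43 and was not called (limma adjusted p = 0.133), so no direction can be given for this gene. The call of the representative set was also lost without any of ACI 1, ACI 2, ACI 3, ACI 4, BN 1, BN 2 or BN 4, with adjusted p between 0.0534 and 0.0799.

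The other RGD-binding chains were not called. *Itgav*, the alpha chain they share, lay between 9.68 and 10.39 in ACI and between 9.83 and 11.47 in BN, with BN 4 and BN 5 highest, and its 3 probe sets gave differences of -0.49, -0.49 and -0.46 (limma adjusted p = 0.512 for the representative). *Itgb6*, the epithelial beta chain that activates latent TGF-beta, gave 7.44, 7.02, 7.02, 6.95 and 6.39 in ACI and 8.90, 9.27, 8.86, 7.42 and 7.21 in BN. BN 1 to BN 3 stood above all ACI rats and BN 4 and BN 5 did not, and the difference of -1.37 ± 0.44 (limma adjusted p = 0.0866) was called without BN 5 (-1.65, adjusted p = 0.0309) and without BN 4 and BN 5 (-2.05, adjusted p = 0.0019). *Itgb5*, a vitronectin receptor chain, gave 0.46 with its representative set (limma adjusted p = 0.315) and -0.73 with a second (0.110). *Itga5*, the fibronectin receptor chain, was under 4 in every rat but BN 3 at 4.29.

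*Itgb1*, the beta chain most cells make, measured 10.65, 10.35, 10.20, 10.70 and 9.72 in ACI and 11.18, 11.08, 11.10, 10.67 and 10.45 in BN. The strains overlapped (-0.57, 95% interval -1.08 to -0.06, limma adjusted p = 0.149), and a second set gave 0.02 (limma adjusted p = 1). *Itga9*, which binds tenascin and other ligands with it, was under 4 in all ACI rats and at 5.45, 5.03, 3.68, 3.09 and 2.31 in BN rats 1 to 5 (-1.45 ± 0.59, limma adjusted p = 0.166). It was called without BN 5 (-1.85, adjusted p = 0.0457), the lowest of these.

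**Figure D4:**
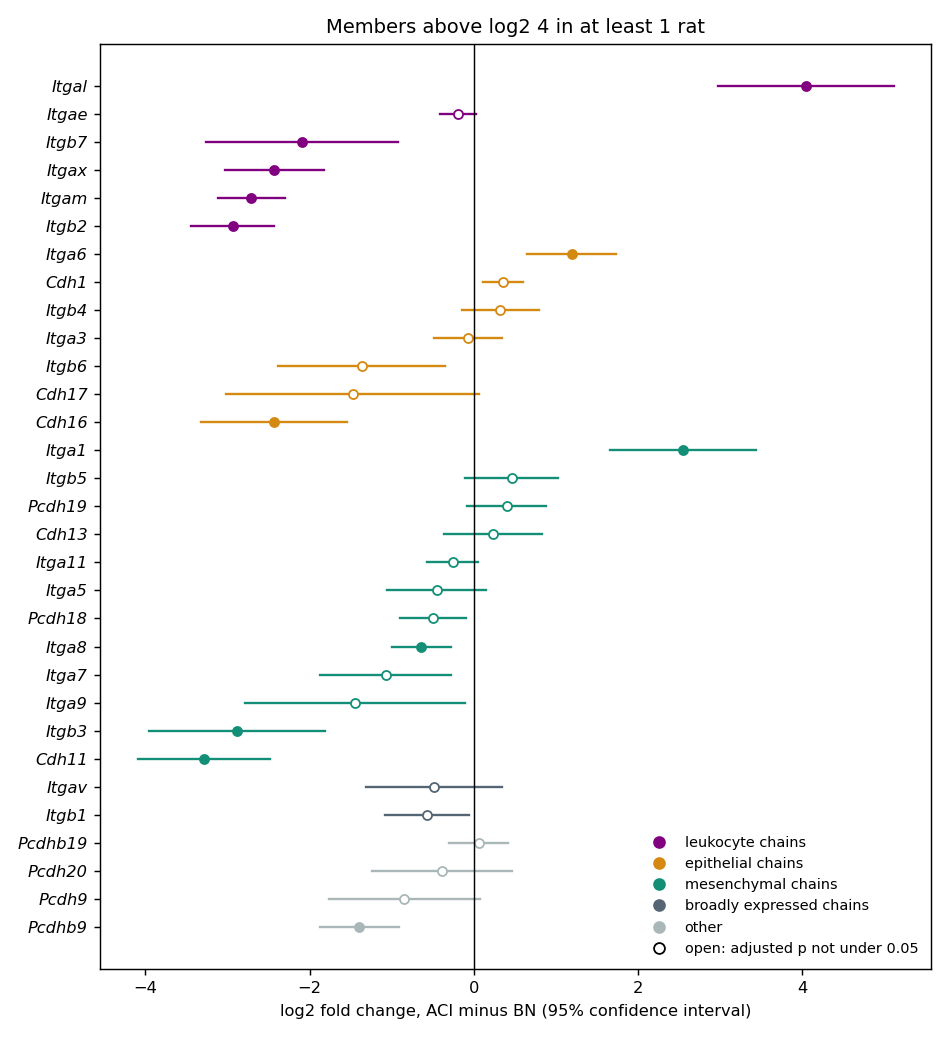
Difference in log2 expression, ACI minus BN, of the 31 genes above log2 4 in at least 1 rat, by class, with 95% confidence intervals from limma; filled points are called at an adjusted p under 0.05. *Itgal*, *Itga1* and *Itga6* are the filled points right of 0, and the 9 filled points left of 0 are the genes called higher in BN.

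The pairing of chains was examined by taking, in each rat, the log2 value of the alpha chain minus that of its beta chain, and comparing this between the strains. Of 24 known pairs, 19 had both chains measured, and 5 differed at an adjusted p under 0.05 by an exact two-sided permutation test of 5 rats against 5, adjusted over the 19 pairs. The 252 arrangements allow a smallest p of 0.0079, and all 5 pairs had that p and an adjusted p of 0.0302. The largest was *Itgal* with *Itgb2*, where the alpha chain was higher in ACI and the beta chain higher in BN, and the pair differed by 6.98 on the log2 scale as measured and by 5.71 with values under 4 set to 4, since *Itgal* was under 4 in 4 BN rats.

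In *Itga1* with *Itgb1* and *Itga6* with *Itgb1* the alpha chain was higher in ACI while the beta chain was not called, and the pairs differed by 3.12 (2.59 with values under 4 set to 4) and 1.76. The remaining pairs that passed were *Itga2b* with *Itgb3* at 2.89 and *Itgad* with *Itgb2* at 2.87, in which the alpha chain was under 4 in every rat. Those 2 values repeat the difference of the beta chain and say nothing of the alpha chain. This leaves 3 pairs in which each chain was above 4 in some rat. Of these, *Itga6* with *Itgb1* had both chains above 4 in every rat, while *Itgal* and *Itga1* were under 4 in most BN rats. *Itgam* and *Itgax* were called higher in BN together with *Itgb2*, and those pairs differed by 0.23 and 0.51 (exact permutation p = 0.286 and 0.0873), which does not show that their chains changed equally. *Itgam* was under 4 in all ACI rats, and with values under 4 set to 4 its pair differed by 1.84 (exact permutation adjusted p = 0.0251). *Itga6* with *Itgb4* differed by 0.87 and *Itgav* with *Itgb3* by 2.40 (both adjusted p = 0.0646, exact permutation test). All these pair values rest on the representative sets. Other sets of *Itga6* above background differed by 3.96 and 3.58 against its 1.19, and a second set of *Itgb1* by 0.02 against -0.57. An unequal change of 2 probe sets therefore need not be an unequal change of 2 chains.

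Without any 1 of the ACI rats no pair passed: the smallest adjusted p was then 0.0503, and 7 or 8 pairs had an unadjusted p under 0.05, against 9 with all rats. Without any 1 of the BN rats 5 to 7 pairs passed. Since pairs share beta chains, the 19 tests are not independent of each other.

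**Figure D5:**
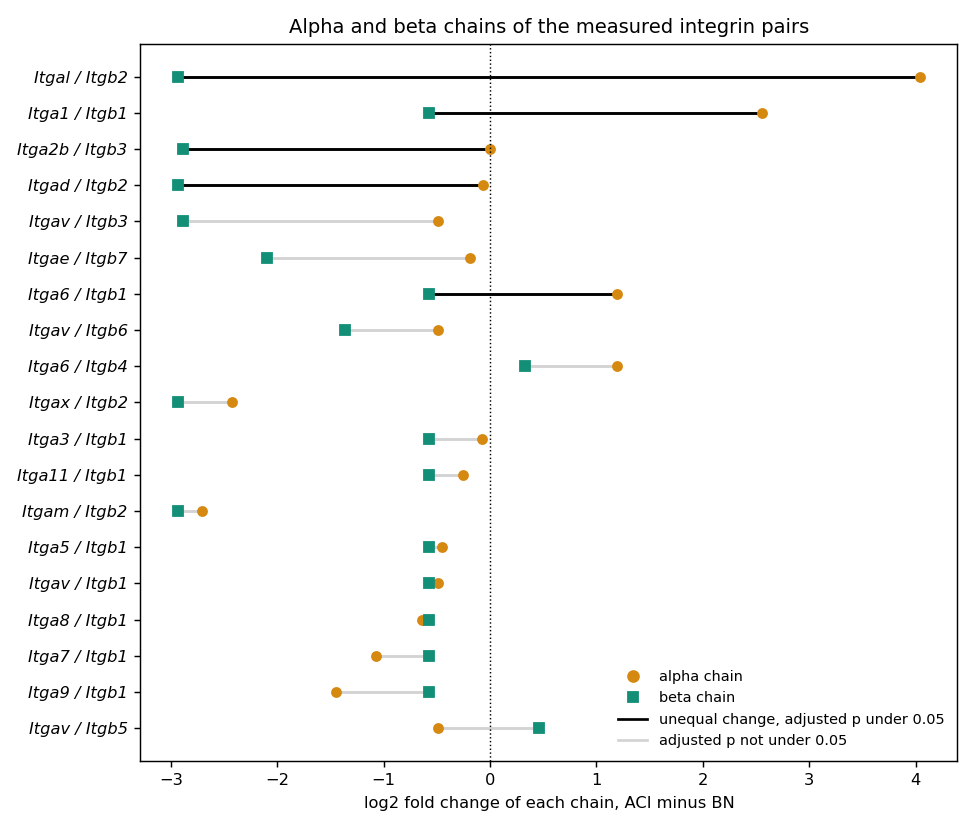
Difference in log2 expression, ACI minus BN, of the alpha chain (circle) and the beta chain (square) of 19 integrin pairs, with a black line where the exact permutation test of their difference passed an adjusted p of 0.05 and a grey line where it did not. *Itgal* and *Itgb2* lie at opposite ends, at 4.04 and -2.94, and the circles of *Itga2b* and *Itgad*, under 4 in all rats, lie at or near 0.

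Among the cadherins of epithelium, *Cdh1* encodes E-cadherin and measured 11.15, 10.68, 11.01, 11.26 and 11.06 in ACI and 10.63, 10.67, 10.77, 10.79 and 10.54 in BN. ACI 2 lay within the BN range and the other ACI rats above it, for a difference of 0.35 ± 0.11 (limma adjusted p = 0.0664) that was called without ACI 2 (0.44, adjusted p = 0.0086). *Cdh3*, P-cadherin of the basal layer, did not rise above 2.24 in any rat. *Cdh16*, a kidney-type cadherin, was at 2.23 to 2.29 in ACI and at 3.78, 3.85, 5.57, 4.73 and 5.62 in BN, near background in ACI and higher in BN (-2.43 ± 0.39, limma adjusted p = 0.0047). With values under 4 set to 4, which raises BN 1 and BN 2 as well, its difference was -0.78, or 1.72-fold, and was not called (adjusted p = 0.249). *Cdh17*, a liver and intestine cadherin, was at 3.93, 4.45 and 5.99 in BN 1 to BN 3 and at 2.33 in BN 4 and BN 5, with all ACI rats at 2.33 or 2.34 (limma adjusted p = 0.223).

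The 8 epithelial chains measured, which take in *Itga3*, *Itga6*, *Itgb4*, *Itgb6* and these cadherins, gave 1 call in each direction and a median difference of -0.04. That is 25.0% called, near the 17.4% over all genes and the 24.7% of genes with a mean of at least 4. Luminal epithelial markers gave 3 calls of 9, all higher in ACI, with list means of 10.40 to 10.77 in ACI and 9.45 to 10.17 in BN. Their part in the difference of *Itga6* was not tested.

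Among the mesenchymal cadherins, *Cdh11* encodes the cadherin of fibroblasts and bone-forming cells. It measured 3.55, 4.85, 4.86, 4.85 and 4.85 in ACI and 7.63, 8.10, 8.54, 8.05 and 7.08 in BN. The BN rats all lay at least 2 log2 units above the ACI rats, and 4 ACI rats shared almost the same value. The background rule of 4 does not cover such a shared value, and whether it is a measured level was not tested. The gene was 9.77-fold higher in BN (-3.29 ± 0.35, limma adjusted p = 7.1e-04), and its 2 other probe sets stayed between 2.23 and 2.65 in all rats. *Cdh13*, or T-cadherin, of vessels and smooth muscle, lay between 6.22 and 6.99 in ACI and between 5.55 and 6.69 in BN (0.23, 95% interval -0.36 to 0.83, limma adjusted p = 0.642). *Cdh2* (N-cadherin), *Cdh6*, *Cdh15* (M-cadherin of muscle) and the protocadherin *Pcdh17* were under 4 in every rat. The endothelial cadherin *Cdh5* had no probe set with a single symbol and was not analysed here.

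Of the 17 mesenchymal chains measured, 1 was higher in ACI, 3 were higher in BN and 13 were not called, with a median difference of -0.32. That is 23.5% called, near the 17.4% over all genes and the 24.7% of genes with a mean of at least 4. The 3 higher in BN were *Cdh11*, *Itgb3* and *Itga8*, the last with probe sets that disagree. The class as listed takes in chains that are also found outside mesenchyme, among them *Itgb3* and its platelet partner *Itga2b*. In the fibroblast list 1 of 7 markers was called (14.3%) and 5 had an unadjusted p under 0.05, all 7 had a lower mean in ACI, and the median difference was -0.89. The list means overlapped through BN 5 alone, at 10.45. The part of fibroblasts in the difference of *Cdh11* was not tested.

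Among the protocadherins, *Pcdhb9*, of the clustered beta group known from neurons, was the only call by its representative set. It measured 2.24, 2.58, 2.68, 2.55 and 2.65 in ACI and 3.80, 3.74, 4.26, 4.51 and 3.37 in BN. The strains did not overlap, with a difference of -1.40 ± 0.21 (limma adjusted p = 0.0036). Only BN 3 and BN 4 rose above 4, so no lower bound can be given. With values under 4 set to 4 the gene was 1.11-fold higher in BN and was not called (adjusted p = 0.532). *Pcdh18*, of mesenchymal cells, was read in both strains, at 7.31 to 7.77 in ACI and 7.72 to 8.41 in BN (-0.50, 95% interval -0.90 to -0.10, limma adjusted p = 0.112). *Pcdh19* lay between 4.21 and 5.17 in ACI and between 3.77 and 4.49 in BN (0.40, limma adjusted p = 0.297). Another 4 probe sets match 13 to 15 clustered protocadherins each and were counted with no gene, and limma called none of them (1 had an unadjusted p under 0.05).

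The genes around these receptors were taken from lists. Over all genes 17.4% were called, and 24.7% of those with a mean of at least 4. Of 30 adaptors and kinases that act on the inner side of integrins, 1 was higher in ACI and 3 higher in BN. That is 13.3% called, no more than over all genes, with 28 of the 30 at a mean of at least 4 and a median difference of -0.20. *Src*, a kinase of focal adhesions, was higher in ACI by 0.89 (limma adjusted p = 0.026), and the leukocyte adaptors *Lpxn* and *Fermt3* were higher in BN, with differences of -2.53 and -1.86 (adjusted p = 0.0010 and 2.1e-04). *Fermt3* encodes kindlin-3, which switches on the CD18 integrins, and was near background in ACI. *Tln1*, *Fermt2*, *Ilk* and *Ptk2* were not called.

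Of 24 matrix ligands of integrins, 2 were higher in ACI and 10 higher in BN (50.0% called), with a median of -0.69 and 19 of the 24 at a mean of at least 4. The largest difference was that of *Spp1*, which encodes osteopontin, a ligand of the pair of *Itgav* and *Itgb3*: it ran from 2.71 to 5.19 in ACI and from 13.06 to 13.98 in BN (-9.39, limma adjusted p = 1.6e-05). *Vwf*, the von Willebrand factor of endothelium and platelets, differed by -2.46 (limma adjusted p = 2.7e-04), and so did *Ltbp1*, which binds latent TGF-beta in the matrix (adjusted p = 0.0122). *Mfge8*, the milk fat globule protein that carries an RGD peptide, and *Lamb3*, a chain of the laminin that *Itga6* binds, were higher in ACI by 0.92 and 0.70 (adjusted p = 0.021 and 0.018).

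Of 9 cell surface ligands of leukocyte integrins, *Thy1* and *F11r* were higher in ACI, by 1.64 and 0.68 (limma adjusted p = 0.0199 and 0.0018), and the median of the list was 0.00. *Thy1* encodes a surface glycoprotein of fibroblasts and nerve cells and *F11r* the junction protein JAM-A. *Icam2*, a ligand of LFA-1 on endothelium, was higher in BN (-1.64, adjusted p = 0.0018), so 33.3% of the list was called. *Icam1*, a ligand of both LFA-1 and complement receptor 3, was not called, at 8.36 to 9.04 in ACI and 8.55 to 8.91 in BN.

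Of 20 catenins and junction partners, 3 were higher in ACI and 1 higher in BN, with a median of 0.05. That is 20.0% called, near the share over all genes. *Col17a1*, the hemidesmosome collagen, and *Jup*, or plakoglobin, were higher in ACI by 1.94 and 1.24 (limma adjusted p = 0.0092 and 0.0126), and *Nectin3*, an adherens junction receptor, was higher in BN (-1.21, adjusted p = 0.0108). The catenins of E-cadherin, *Ctnna1*, *Ctnnb1* and *Ctnnd1*, were not called. None of 4 desmosomal cadherins and none of 5 repressors of E-cadherin, among them *Zeb1* and *Snai1*, was called by limma. Unadjusted p was under 0.05 for 0 of the first and 1 of the second, and the medians of these lists were 0.03 and -0.59.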

How the data were processed

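The authors turned the probe signals of each array into log2 values per probe set by GCRMA 2.18.1, per the submitters' processing notes, and the log2 values were used as deposited. The sources used here do not say which arrays GCRMA handled as a set. In the labels of the BN samples the RNA protocol speaks of ACI rats; the strain field, Brown Norway, was followed. Of 31099 probe sets, 57 controls were left out. Symbols came from the platform annotation: 20826 probe sets carry 1 symbol, 436 several and 9780 none, and 20758 of those with 1 were updated by gene ID from a RefSeq table.

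The strain comparison used limma 3.58.1 (R 4.3.3) without covariates, and integrin pairs were compared by an exact permutation test in python 3.11.15. Both tests were tested on simulated data. Each rat is 1 sample, the number of arrays limits the precision, and the p-values measure the spread between rats. Named are all called genes, all members of the epithelial, leukocyte, mesenchymal and broad classes, and of each pathway list the 2 called genes with the largest change in each direction; *Tln1*, *Fermt2*, *Ilk*, *Ptk2*, *Icam1*, *Ctnna1*, *Ctnnb1*, *Ctnnd1*, *Zeb1*, *Snai1* and the single markers named lie outside this rule and were picked with their values known. The members, lists and tests were chosen with earlier results of these data known.

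The alternatives were blocks for the replicate number and for the letter (S or H) that opens each animal ID, whose meaning the sources do not state, each letter alone, a filter to means of at least 4, a floor of 4, quantile normalization, centring, the methods' t-test, a trended and robust variance, array weights, the mean over a gene's probe sets, leaving out probe sets that can match several genes, leaving out BN 4 and BN 5, and leaving out each rat in turn.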

Additional observations from a re-analysis of the deposited data

Results flagged for a closer look

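Of 50 groups of 5 rats, each a named gene in a strain with at least 1 rat at 4 or above, 7 held a rat whose gap to its nearest neighbour was above 0.710 of the range of the group, where chance alone flags about 1 group in 20. *Cdh11* in ACI 1 was 3.55, with the other ACI rats at 4.85 to 4.86. *Itgb4* in ACI 1 was 9.03, with the others at 8.23 to 8.45. *Itga3* in ACI 1 was 7.48, with the others at 7.00 to 7.12, and in BN 3 it was 7.89, with the others at 7.04 to 7.09. *Itga5* in BN 3 was 4.29, with the others at 2.95 to 3.27. *Itgb7* in BN 3 was 4.01, with the others at 6.00 to 6.77. *Itgal* in BN 5 was 4.71, with the others at 2.23 to 2.88. ACI 1 and BN 3 thus each account for 3 of the 7. Whether the strain difference of a gene differed between rats of ID letter S and rats of ID letter H was tested as an interaction in limma, and 0 of the 55 genes passed an adjusted p of 0.05 (9 had an unadjusted p under 0.05), while 856 of all probe sets passed.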

How the results depend on the processing

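The 12 called genes kept the sign of their difference in every alternative in which they were tested, except *Itga8* with the mean over its probe sets (0.43, limma adjusted p = 0.133). The count of 12 called genes, 3 higher in ACI and 9 higher in BN, with 4 leukocyte chains higher in BN, ranged from 10 to 13, 3 to 4, 7 to 10 and 3 to 4 when each rat was left out in turn. The rats of ID letter H alone, 2 against 2, gave 0 calls by limma in all of these counts (10 genes had an unadjusted p under 0.05), and over all genes 56 calls against 2476. Array weights gave 19 called genes, 15 of them higher in BN, and over all genes 4880 calls against 2476. The count of 5 integrin pairs became 3 with means of at least 4, 10 without BN 4 and BN 5, and 0 to 7 when each rat was left out. It was 0 without any 1 of the ACI rats, where the smallest adjusted p was 0.0503. Leaving out 1 BN rat gives the same 126 arrangements, and the smallest adjusted p was then 0.0215 to 0.0302. With 3 rats against 3, or fewer, no pair could pass, so the pairs were not tested within an ID letter.

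With the replicate number as a block 9 genes were called, 3 higher in ACI and 6 higher in BN, and *Itgb3* (adjusted p = 0.0689), *Itgb7* (0.112) and *Itga8* (0.151) were not. The deviations of rats with the same number correlated at 0.11, -0.13, -0.10, 0.23 and -0.25 for numbers 1 to 5. Each was under the best correlation with another number. A single value is often under the best of several, so this cannot decide whether the numbers pair the rats. With ID letter S alone, 3 against 3, *Itga1* (2.26, adjusted p = 0.0679), *Cdh16* (-2.11, adjusted p = 0.0836) and *Itgb7* lost the call and *Itgb6* gained it (-1.85, adjusted p = 0.0088). *Itgb6* was also called with the ID letter as a block, with centring, quantile normalization, means of at least 4 and array weights, and *Cdh1* with quantile normalization and with the mean over probe sets. The causes were not tested. Signal over background limits what can be said of the 24 genes under 4 in every rat.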
